A study of Mus musculus with 12 samples.

Results

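Cells carry proteins that recognise RNA and DNA in the cytosol, where foreign nucleic acid marks an infection and misplaced self nucleic acid marks damage. The mRNAs of 9 such proteins and their partners, chosen by gene name, were followed here in mouse retina and in cultured cells given MSC.sEV (read here as small extracellular vesicles of mesenchymal stem cells) or phosphate-buffered saline (PBS). All 9 were listed in both count tables, among 32285 genes in the retina table and 55401 in the table of the cultures. RIG-I (the product of Ddx58) and MDA5 (Ifih1) are helicases that bind viral double-stranded RNA, and LGP2 (Dhx58) is a related helicase that tunes them. RIG-I and MDA5 signal through MAVS on mitochondria to the kinase TBK1, which activates the transcription factor IRF3 and, through it, the gene of interferon beta, Ifnb1. cGAS (Cgas) binds DNA and feeds the same kinase through STING, Ifi204 encodes a DNA-binding member of the p200 family, and PKR (Eif2ak2) is a kinase that stops translation when it binds double-stranded RNA. Several of these sensor genes are themselves induced by interferon, which makes them common readouts of an interferon response.

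The study held 12 bulk RNA libraries in 4 groups of 3, all of genotype WT. Retina groups were labelled ONC+PBS and ONC+i.o.MSC.sEV, where ONC is optic nerve crush, an axon injury, and were taken on day 1; the labels do not spell out the mark i.o., and the PBS group does not carry it. Culture groups were labelled brain microvascular pericytes, with P4 in the sample names, and were given PBS or MSC.sEV for 12 hours. The labels give no age, sex or strain, no vesicle dose, and nothing on whether the 3 libraries of each group stem from different animals or dishes, so p-values measure the spread between these libraries, which may be technical. Retina columns were assigned to the groups from short column names (CTR and M), by inference, and the sign of each retina difference depends on this assignment.

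Retina libraries held 15580024 to 16842926 counts and culture libraries 33001248 to 37954077. Levels are given as counts scaled to a common library total (CPM), on which scale 3 counts equalled 0.180 to 0.196 CPM in a retina library and 0.0778 to 0.0895 CPM in a culture library. The tables list different gene classes, so levels were compared within a table only. In the cultures, the pericyte genes Acta2 (572 CPM with PBS), Pdgfrb (59.7 CPM) and Cspg4 (11.9 CPM) were present, while Rgs5 stood at 0.283 CPM, Kcnj8 at 0.0792 CPM, and Abcc9 and Des at 0. Genes known from glia stood higher than Pdgfrb in the same PBS cultures, with Glul at 575, Aqp4 at 477, Slc1a3 at 434 and Olig1 at 208 CPM, and Olig2 was at 64.4 CPM. The cells are therefore called pericyte-labelled below. The 6 lens markers summed to 468 to 5560 CPM in the PBS retinas and 83.6 to 67322 CPM in the vesicle retinas. Lens tissue is not part of the retina, and the tests within the retina table were also run without PBS library 1 and vesicle library 2, which held the most lens mRNA of their groups. This pair is called lens-rich below. Vesicle library 1 stayed in, with 16293 CPM of lens markers, above the 5560 CPM of PBS library 1. Leaving out the pair therefore did not remove lens mRNA from the comparison.

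The start sites of these genes carry sequences that a reader can set beside the values. RefSeq promoter windows (GRCm38.p6, 250 bases before to 50 after the start site) were matched for 7 of the 9 genes, not for Dhx58 and Ifi204. They were searched on both strands for the core of the interferon-stimulated response element (GAAA, any 2 bases, GAAA) and an NF-kB site (GGGA, any 2 bases, TTCC). The first was in 3 of the 7 windows, those of Ifih1, Ddx58 and Eif2ak2, against 3.44% of 32851 windows over all genes. An NF-kB site was in the Ifnb1 window only, against 1.47%. The windows of Cgas, Mavs and Tbk1 held neither letter pattern. A match is a run of letters and not a measured binding site. The 30 bases around these matches are shown with the matching bases in capitals. The 3 genes with the interferon pattern are called higher with vesicles in both settings below, though the retina calls of Ifih1 and Eif2ak2 depend on the processing, and Dhx58 and Ifi204 were not searched. Of the genes without it, Tbk1 is also called higher in the cultures, Mavs is called in neither setting, and Cgas is not called in the cultures. A link between pattern and calls was not tested. The Ddx58 match lies on the opposite strand, so its capitals read as the reverse complement of the pattern. Each stretch is on the minus strand of the genome and is written 5′ to 3′ in the direction of the gene, at chr2:62646206-62646235, chr4:40239804-40239833, chr17:78882535-78882564 and chr4:88522891-88522920 in the order printed.
Ifih1: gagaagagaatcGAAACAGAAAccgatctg
Ddx58: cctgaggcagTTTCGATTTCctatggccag
Eif2ak2: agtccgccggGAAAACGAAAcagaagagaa
Ifnb1: aactgaaagtGGGAAATTCCtctgaggcag
The matches lie 33 to 42 bases after the start site in Ifih1, 3 to 12 after it in Ddx58 and 19 to 28 after it in Eif2ak2, while that of Ifnb1 spans positions -116 to -107.

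In pericyte-labelled cells, the vesicles raised 6 of the 8 genes that passed the filter on low counts: the RNA helicases Ifih1, Ddx58 and Dhx58, the DNA-binding Ifi204, the kinase Eif2ak2 and, by less, the kinase Tbk1. None fell. In the same comparison 3365 of 16975 tested genes were called at an adjusted p under 0.05 (19.8%), 10.9% of them higher and 8.9% lower as shares of all tested genes. When libraries were scaled by total counts alone, calls over all genes turned from 1855 higher and 1510 lower to 1512 higher and 2050 lower, while the same 6 genes were called, each of them higher. In the crushed retina, 3 of the 7 tested genes rose with vesicles, Ddx58, Eif2ak2 and Ifih1, and none fell. In bulk RNA, more or fewer cells of a type cannot be told apart from more or less RNA per cell. In the retina 2449 of 15440 tested genes were called (15.9%), 10.7% higher and 5.19% lower. Cgas in the retina, and Ifnb1 in both tables, had too few counts to be tested.

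**Figure D1:**
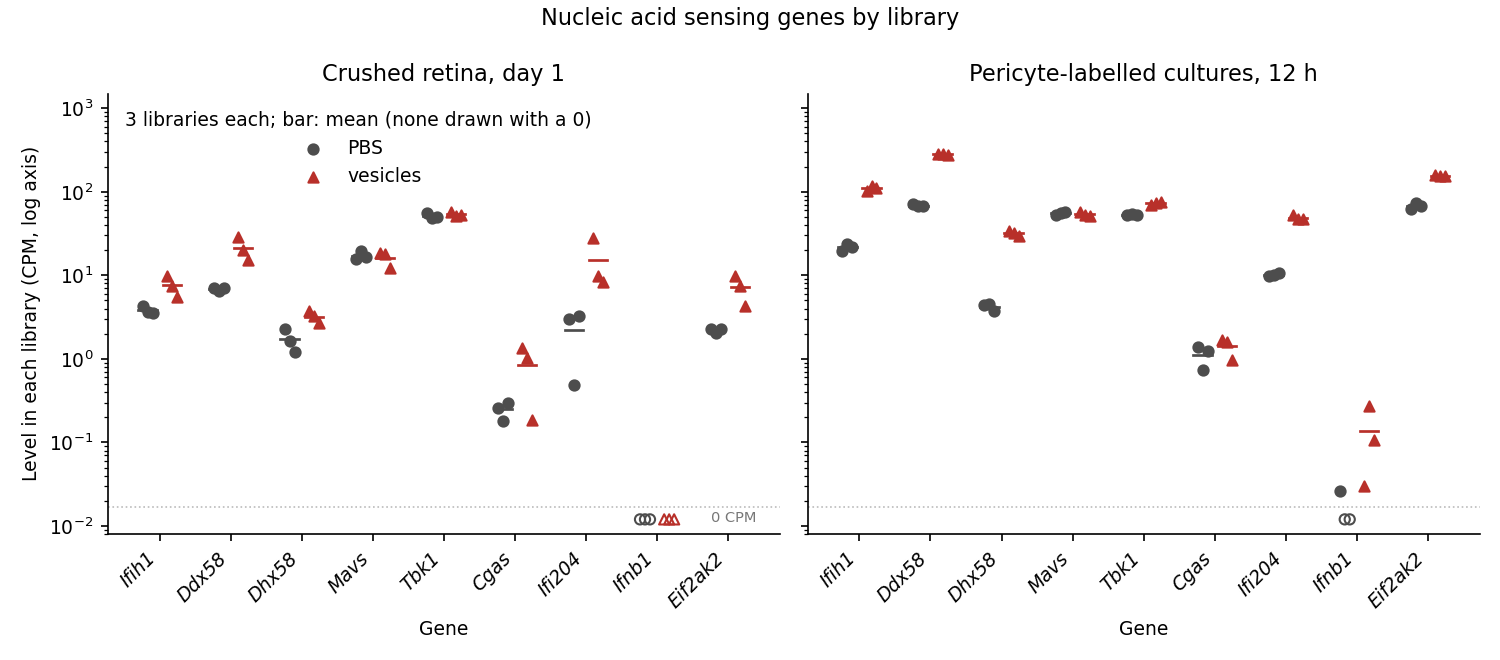
Level of each gene in every library (CPM, log axis) in the crushed retina and in pericyte-labelled cultures, with PBS as grey circles and vesicles as red triangles; bars are means of 3 libraries and open symbols below the dotted line are libraries at 0. In cultures the groups of 6 genes lie apart with little spread, as for Ddx58 at 67.0 to 70.6 against 277 to 284 CPM, while vesicle retinas spread widely, as for Ddx58 at 15.1 to 28.7 CPM.

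All 3 RNA helicases rose in the cultures. Ddx58 (ENSMUSG00000040296) measured 70.6, 67.7 and 67.0 CPM with PBS and 284, 284 and 277 CPM with vesicles. Every vesicle library lay far above every PBS library, and libraries within a group were close to each other. The log2 fold change, vesicles minus PBS, was 2.04 ± 0.06 (SE), or 4.12-fold, with an adjusted p of 7.1e-17 (edgeR). Ifih1 (ENSMUSG00000026896) measured 19.6, 23.6 and 21.6 CPM with PBS and 103, 119 and 112 CPM with vesicles. Its groups did not overlap either, and its log2 fold change was 2.37 ± 0.08 with an adjusted p of 1.4e-15 (5.16-fold).

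Dhx58 (ENSMUSG00000017830), the helicase without a signalling domain of its own, started lowest of these RNA helicases and had the highest fold change of the 8 genes tested in the cultures. It measured 4.41, 4.52 and 3.75 CPM with PBS and 33.5, 32.4 and 29.2 CPM with vesicles, a log2 fold change of 2.91 ± 0.11 (7.496-fold, adjusted p 2.4e-14). All vesicle libraries were above all PBS libraries. The GENCODE M21 annotation places an antisense gene, Dhx58os, over this locus, and the sources do not say whether reads were counted by strand. That gene held 7 counts over the PBS cultures and 22 over the vesicle cultures, against 29.2 to 33.5 CPM of Dhx58 in each vesicle library.

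In the crushed retina Ddx58 and Ifih1 were called higher. Ddx58 measured 7.05, 6.57 and 7.15 CPM with PBS and 28.7, 19.9 and 15.1 CPM with vesicles. PBS libraries lay within 1 CPM of each other, whereas vesicle library 1 stood highest and library 3 lowest, still above every PBS library. Its log2 fold change was 1.61 ± 0.23 (3.06-fold), with an adjusted p of 0.0017, and it was called higher in all 12 alternatives. Ifih1 measured 4.24, 3.65 and 3.54 CPM with PBS and 9.94, 7.40 and 5.43 CPM with vesicles. The groups did not overlap, and vesicle library 1 was again highest and library 3 lowest of its group. The log2 fold change of 0.99 ± 0.27 had an adjusted p of 0.033 and lost its call in 7 of 12 alternatives: the adjusted p was 0.0541 with limma voom, 0.0911 without the lens-rich libraries (log2 fold change 1.10), 0.0509, 0.113 and 0.0856 without PBS libraries 1, 2 and 3, and 0.150 and 0.0796 without vesicle libraries 1 and 2.

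Dhx58 did not pass the threshold in the retina. It measured 2.28, 1.64 and 1.20 CPM with PBS and 3.70, 3.22 and 2.72 CPM with vesicles, so that the groups did not overlap, with the lowest vesicle library just above the highest PBS library. The log2 fold change was 0.91 ± 0.33 with a 95% interval from 0.17 to 1.65 and an adjusted p of 0.094. Dhx58os held 3 counts over the PBS retinas and 13 over the vesicle retinas, beside 82 and 153 counts of Dhx58.

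Mavs, the adaptor that both RIG-I and MDA5 use, was not called in either setting. In the cultures Mavs (ENSMUSG00000037523) measured 52.5, 55.5 and 57.1 CPM with PBS and 57.2, 53.4 and 51.9 CPM with vesicles, with overlapping groups and a log2 fold change of -0.02 (95% interval -0.16 to 0.12, adjusted p 0.87). In the retina it measured 15.7, 19.3 and 16.5 CPM with PBS and 18.4, 17.9 and 12.2 CPM with vesicles, also overlapping, with a log2 fold change of -0.09 (95% interval -0.50 to 0.31, adjusted p 0.77). Both intervals leave out a change as large as that of Ddx58 in the same table.

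Tbk1, the kinase on which the RNA and DNA branches meet, rose in the cultures and was not called in the retina. In the cultures Tbk1 (ENSMUSG00000020115) measured 52.2, 53.6 and 52.6 CPM with PBS and 69.6, 73.6 and 74.6 CPM with vesicles. The groups lay well apart, but the log2 fold change of 0.46 ± 0.06 (1.38-fold, adjusted p 1.1e-05) was the lowest among the 6 genes called there. In the retina it measured 55.0, 48.8 and 50.5 CPM with PBS and 57.8, 50.8 and 53.1 CPM with vesicles. The groups overlapped, and the log2 fold change was 0.07 with a 95% interval from -0.15 to 0.29 and an adjusted p of 0.69.

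The DNA sensors differed in abundance. Ifi204 (ENSMUSG00000073489), a p200 family gene, measured 9.78, 10.044 and 10.7 CPM in PBS cultures and 52.6, 47.2 and 47.7 CPM in vesicle cultures. Every vesicle library was above every PBS library, with a log2 fold change of 2.27 ± 0.09 (4.84-fold, adjusted p 2.0e-14). In the retina Ifi204 measured 3.00, 0.486 and 3.24 CPM with PBS and 27.7, 9.80 and 8.27 CPM with vesicles. PBS library 2 stood far below the other PBS retinas and vesicle library 1 far above the other vesicle retinas, yet the groups did not overlap. The log2 fold change was 2.76 ± 0.80, with a 95% interval from 0.75 to 4.78, and the adjusted p of 0.080 missed the threshold in edgeR. It was 0.015 in DESeq2 and 0.0475 in limma voom, and from 0.0835 to 0.248 in the other 10 alternatives. Without vesicle library 1 the log2 fold change was 2.01 (adjusted p 0.13). Genes of this family are close copies of each other in a cluster, so reads can be shared or lost between them.

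Cgas (ENSMUSG00000032344), the enzyme that makes the messenger read by STING, was scarce in both settings. In the cultures it measured 1.37, 0.743 and 1.24 CPM with PBS and 1.70, 1.59 and 0.969 CPM with vesicles. The groups overlapped, with a log2 fold change of 0.33 ± 0.36 (95% interval -0.42 to 1.09, adjusted p 0.61). In the retina it had 4, 3 and 5 counts with PBS and 21, 16 and 3 counts with vesicles, below the filter. Vesicle libraries 1 and 2 lay above the PBS retinas and library 3 did not. The ratio of the summed counts was 3.38 (95% exact interval 1.74 to 7.08, covering counting error only). With no filter the edgeR log2 fold change was 1.73 with an adjusted p of 0.13, and it passed the threshold only without vesicle library 3 (2.21, adjusted p 0.022).

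Ifnb1 (ENSMUSG00000048806), the interferon gene at the end of this pathway, was hardly detected. In the retina no read was counted in any of the 6 libraries, which allows up to 0.0619 CPM over the PBS group and 0.0628 CPM over the vesicle group. In the cultures it had 1, 0 and 0 counts with PBS and 1, 10 and 4 counts with vesicles. Vesicle libraries 2 and 3 lay above all PBS libraries, while vesicle library 1 had the same single count as PBS library 1. The summed counts of 1 and 15 gave a ratio of 15.3 with a 95% exact interval from 2.35 to 644, covering counting error only, and with no filter edgeR gave an adjusted p of 0.28. At this depth no change in Ifnb1 was called.

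Eif2ak2, which encodes PKR, was called in both settings. In the cultures Eif2ak2 (ENSMUSG00000024079) measured 62.8, 72.7 and 66.9 CPM with PBS and 157, 153 and 154 CPM with vesicles. All vesicle libraries were above all PBS libraries, with a log2 fold change of 1.20 ± 0.06 (2.29-fold, adjusted p 3.8e-12). In the retina it measured 2.28, 2.07 and 2.28 CPM with PBS and 9.94, 7.52 and 4.26 CPM with vesicles. PBS retinas were nearly equal, and the vesicle retinas, with library 1 highest and library 3 lowest, all lay above them. The log2 fold change was 1.71 ± 0.33 (3.27-fold, adjusted p 0.0075), and without the lens-rich libraries the log2 fold change was again 1.71, with an adjusted p of 0.0583 from 2 libraries a group.

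**Figure D2:**
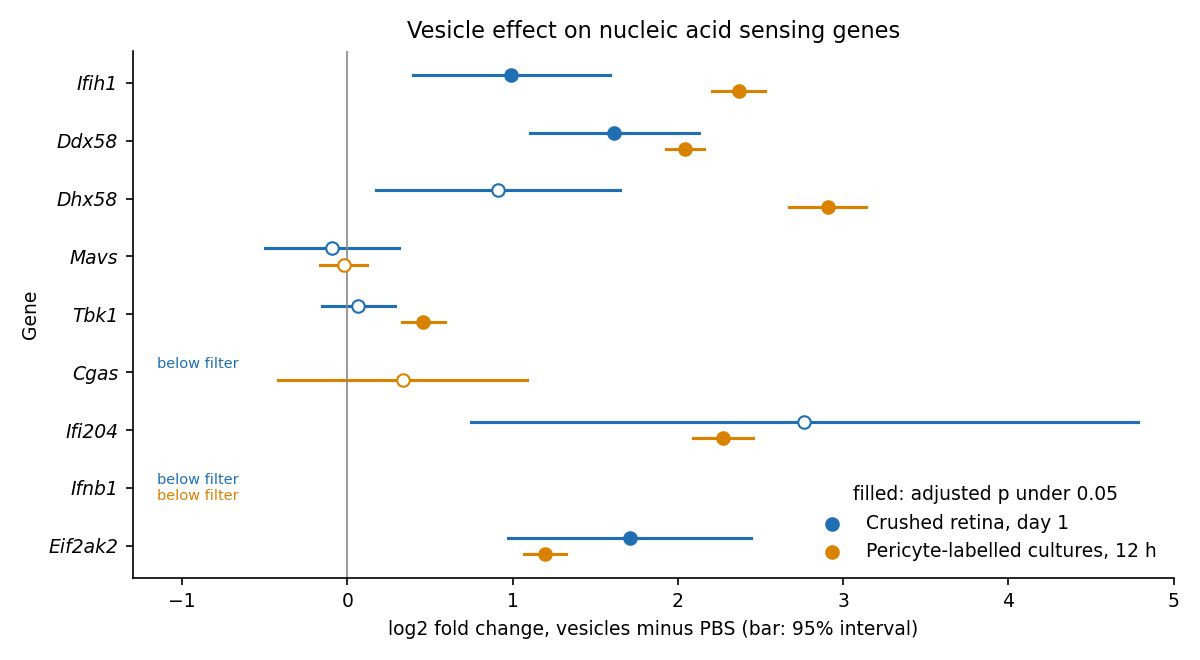
Log2 fold change of vesicles minus PBS for each gene (horizontal axis, bars are 95% intervals), with the retina in blue and pericyte-labelled cultures in orange; filled points are called at an adjusted p under 0.05. Ifih1 and Dhx58 lie further right in the cultures (2.37 and 2.91) than in the retina (0.99 and 0.91), and Ifi204 in the retina has the widest interval, from 0.75 to 4.78.

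Of the sensing genes, 5 of 7 tested in the retina had all vesicle libraries above all PBS libraries, as did 19.5% of all tested genes (35.7% had groups apart in either direction). In the cultures 6 of 8 did, against 17.4% of all tested genes (33.8% in either direction). The median log2 fold change was 0.99 over the 7 genes tested in the retina and 1.62 over the 8 tested in the cultures, with medians of -0.02 and 0.00 over all tested genes. Of the 8 genes with counts in the retina, vesicle library 1 held the highest value of its group in 8 and vesicle library 3 the lowest in 7. In the PBS retinas the highest value lay in library 1 for 4 genes, in library 2 for 1 and in library 3 for 3. The lowest lay in library 1 for 1 gene, in library 2 for 5 and in library 3 for 2. How often such orders occur over all tested genes was not counted.

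Leukocyte markers rose in the same retina libraries. All 10 of 10 leukocyte markers, Ptprc and Lyz2 among them, were called higher with vesicles, and their summed level was 73.1 to 107 CPM with PBS and 1045, 1055 and 698 CPM in vesicle libraries 1 to 3. All 5 neutrophil markers were called higher too, with sums of 4.13 to 16.3 CPM and 345 to 767 CPM. Rod markers fell in 4 of 6 cases, and 2 of 5 microglia markers fell while none rose. The part of these markers in the retina values of Ddx58, Ifih1, Eif2ak2 and Ifi204 was not tested. In the cultures 2 of 9 tested leukocyte markers rose, Ptprc and Adgre1, with list sums of 86.9 to 95.3 CPM and 97.0 to 144 CPM. Neutrophil markers summed to at most 0.301 CPM there, with S100a9, Cxcr2 and Retnlg at 0 in every library. Markers of other cell types also moved in the cultures. Of 5 tested oligodendrocyte-lineage markers Olig1, Olig2 and Pdgfra fell, Olig1 from 208 to 150 CPM. The endothelial Kdr fell from 4.73 to 1.49 CPM. Of 5 tested markers of Mueller glia, Aqp4 rose from 477 to 623 CPM and Rdh10 fell from 152 to 127 CPM. Glul, Slc1a3 and Rlbp1 were not called. Of the mural markers Pdgfrb and Cspg4 rose while Anpep and Notch3 fell. The part of these changes in the culture results was not tested.

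The vesicle effect itself was compared between settings in 1 fit over all 12 libraries (limma voom with a weight per table). Of the 7 genes in that fit, 3 differed, each with the weaker effect in the retina, where 12.2% of 13712 genes differed, 4.62% in this direction and 7.59% in the other. The differences, retina minus cultures, were -1.97 ± 0.38 for Dhx58 (adjusted p 0.0034), -1.42 ± 0.33 for Ifih1 (adjusted p 0.0094) and -0.40 ± 0.11 for Tbk1 (adjusted p 0.027). That of Tbk1 lost its call without culture PBS library 3 (adjusted p 0.0504) or retina vesicle library 2 (adjusted p 0.0525). No difference was called for Ddx58 (-0.48, 95% interval -1.01 to 0.05), Eif2ak2 (0.41, -0.39 to 1.21), Ifi204 (0.66, -0.78 to 2.11) or Mavs (-0.09, -0.49 to 0.30), and that of Ddx58 was called without retina vesicle library 1 (adjusted p 0.037). Tissue, injury, time, route and gene classes counted all differ between these settings and cannot be told apart.

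Per length of exon, the order of the levels differed between the settings before any vesicle was given. Levels here are the CPM divided by the length of a gene's exons in kilobases (RPKM), taken from GENCODE M21. This length merges all annotated exons of a gene and is not that of a transcript. In PBS retinas Tbk1 stood first at 13.2 ± 0.820 RPKM and Mavs second at 5.14 ± 0.566 RPKM, so that kinase and adaptor exceeded every sensor. Ddx58 followed at 0.982 RPKM, then Ifi204 at 0.630, Dhx58 at 0.522, Ifih1 at 0.467 and Eif2ak2 at 0.433 RPKM, of which each of the last 4 overlapped its neighbour. Cgas came last of the detected genes at 0.0601 RPKM. In vesicle retinas Tbk1 was still first at 13.8 RPKM and did not overlap Mavs at 4.83 RPKM, while Mavs overlapped Ifi204 at 4.29 RPKM, which in turn overlapped Ddx58 at 3.01 RPKM.

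In PBS cultures Mavs stood first at 16.5 ± 0.693 RPKM, above Tbk1 at 13.5 and Eif2ak2 at 13.2 RPKM, which overlapped each other. The sensors came next, Ddx58 at 9.71, then the overlapping pair Ifi204 at 2.85 and Ifih1 at 2.64, and Dhx58 at 1.29 RPKM, with Cgas at 0.271 RPKM. With vesicles Ddx58 moved to the top at 40.0 ± 0.630 RPKM and Eif2ak2 to the second place at 30.2 RPKM, above Tbk1 at 18.6 and Mavs at 16.2 RPKM, with no overlap between these neighbours. Ifi204 and Ifih1 overlapped again at 13.8 and 13.6 RPKM, and Dhx58 reached 9.68 RPKM. On this scale the RNA sensor Ddx58 went from below its adaptor Mavs to above it in the cultures, and in the retina it stayed below. The order depends on the exon lengths, 7050 bases for Ddx58 and 3345 for Mavs. In CPM, Ddx58 and Eif2ak2 already exceeded Mavs and Tbk1 in PBS cultures, at 68.5 and 67.5 against 55.0 and 52.8 CPM. In vesicle retinas Ddx58 averaged 21.2 CPM and Mavs 16.2 CPM.

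**Figure D3:**
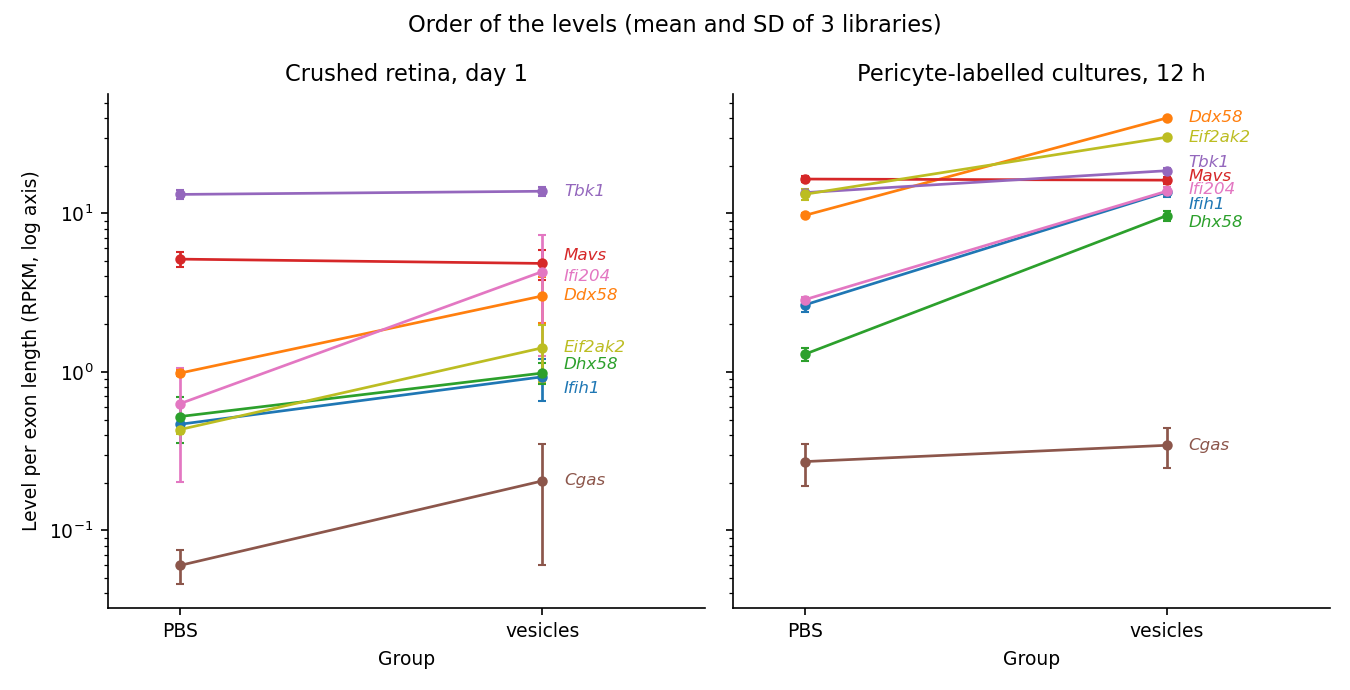
Mean level per exon length (RPKM, log axis) with PBS and with vesicles in the 2 settings; lines join the group means of a gene and error bars are SD of 3 libraries. In cultures the Ddx58 and Eif2ak2 lines cross those of Mavs and Tbk1, ending at 40.0 and 30.2 RPKM, while in the retina Tbk1 stays on top at 13.2 and 13.8 RPKM; Ifnb1 is left out.

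The rest of the sensing pathways was read from 8 lists of 108 genes. Of these, 82 were tested in the retina, where 25 rose and 3 fell, and 85 in the cultures, where 43 rose and none fell. Each list count below stands against the shares of all tested genes called higher and lower, 10.7% and 5.19% in the retina and 10.9% and 8.9% in the cultures. In every alternative 15 of the 28 retina calls and 40 of the 43 culture calls were kept.

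Of the cofactors of the RNA sensors, 4 of 11 rose in the cultures and none fell (10.9% of all tested genes rose), with a list median of 0.11: Ddx60, a helicase that assists RIG-I, from 7.69 ± 0.186 to 60.1 ± 6.46 CPM (a log2 fold change of 2.97 ± 0.09, adjusted p 8.7e-16), the ubiquitin ligase Trim25 from 32.3 to 95.6 CPM, the antiviral zinc finger gene Zc3hav1 from 74.3 to 147 CPM, and Rnf135, the ligase Riplet, from 19.1 to 30.1 CPM. In the retina 2 of 11 rose and none fell (10.7% of all tested genes rose), with a median of 0.10. These were Trim25, from 9.52 ± 2.06 to 25.4 ± 6.25 CPM (a log2 fold change of 1.41 ± 0.21, adjusted p 0.0025), and Zc3hav1, from 1.70 to 7.38 CPM. Trim25 and Zc3hav1 thus rose in both.

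Among DNA sensing genes, 9 of 16 rose in the cultures and 7 of 16 in the retina, and none fell in either, where 10.9% and 10.7% of all tested genes rose. Of those that rose, Ifi203, Ifi207 and Ifi209 in the cultures and Zbp1, Ifi205 and Ifi211 in the retina had a PBS library under 10 counts. Such genes needed vesicle libraries to pass the filter on low counts, which favours rises, so these counts are a description only. Zbp1, a sensor of Z-form nucleic acid, went from 20.1 ± 0.580 to 83.3 ± 5.998 CPM in the cultures (log2 fold change 2.05 ± 0.07, adjusted p 8.0e-15). There Ifi211, Ifi205 and Ifi203, relatives of Ifi204, rose from 17.3 to 77.4, from 3.81 to 21.98 and from 0.167 to 3.52 CPM. In the retina the gene with the lowest p was Lrrfip1, a nucleic acid binding protein, at 6.14, 7.42 and 8.71 CPM with PBS and 24.5, 23.5 and 17.0 CPM with vesicles, with no overlap (log2 fold change 1.54 ± 0.19, adjusted p 0.00098). Ifi205 and Ifi203 rose from 0.521 to 6.05 and from 1.15 to 7.61 CPM. Sting1, the adaptor that cGAS signals through, rose from 2.94 ± 0.484 to 11.5 ± 4.56 CPM in the retina (log2 fold change 1.97 ± 0.33, adjusted p 0.0040) and from 3.11 ± 0.339 to 5.49 ± 0.998 CPM in the cultures (0.82 ± 0.19, adjusted p 0.0034). List medians were 1.48 in the retina and 0.77 in the cultures. Retina calls of Zbp1 and Trim56 did not survive leaving out the lens-rich libraries (log2 fold changes 2.91 and 1.09, adjusted p of 0.1103 and 0.0574), and that of Zbp1 also without PBS library 1 (adjusted p 0.0551).

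Among the kinases, adaptors and factors beside Tbk1, Ikbke rose more in the retina and Irf7 more in the cultures. Ikbke, the kinase most like TBK1, measured 0.914, 0.669 and 0.721 CPM in PBS retinas and 11.2, 7.78 and 10.002 CPM in vesicle retinas, far apart (log2 fold change 3.64 ± 0.28, adjusted p 0.00010). In the cultures it went from 23.9 to 42.5 CPM (0.83 ± 0.10, adjusted p 3.8e-06), and the difference of 2.76 ± 0.57 between settings was called (limma, adjusted p 0.0048). Irf7, the interferon-induced relative of IRF3, went from 13.2 ± 0.980 to 115 ± 9.50 CPM in the cultures (3.12 ± 0.08, adjusted p 2.9e-17) and from 19.5 ± 1.62 to 29.4 ± 6.20 CPM in the retina (0.59 ± 0.16, adjusted p 0.035), a difference of -2.55 ± 0.20 (limma, adjusted p 1.9e-06). The retina call of Irf7 was lost on leaving out 1 of PBS libraries 2 and 3 or vesicle library 1, with adjusted p from 0.0812 to 0.135. It was also lost with limma voom (adjusted p 0.0532). Irf3 itself was not called in either setting, at 52.8 and 56.3 CPM in the retina and 46.8 and 50.5 CPM in the cultures. In all, 5 of 12 rose in the cultures, with Azi2, Tank and Optn beside those 2, and 2 of 12 rose in the retina, where Optn fell. Over all tested genes 10.9% rose in the cultures and 10.7% in the retina. Tank lost its culture call on leaving out PBS library 2, at an adjusted p of 0.0671, or vesicle library 1, at 0.0556.

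Optn and Tnfaip3 were called in opposite directions. Optn, an adaptor that binds ubiquitin and TBK1, measured 167, 157 and 155 CPM in PBS retinas and 109, 103 and 127 CPM in vesicle retinas, with no overlap (log2 fold change -0.50 ± 0.10, adjusted p 0.0093). In the cultures it measured 25.4 and 30.7 CPM on average (0.27 ± 0.08, adjusted p 0.019). Its retina call was lost without vesicle library 1 (adjusted p 0.0519) or the lens-rich pair (log2 fold change -0.39, adjusted p 0.0658), and its culture call without any 1 of the PBS libraries or vesicle library 2 (adjusted p from 0.0560 to 0.0847). The culture call of Optn was also lost when libraries were scaled by total counts (adjusted p 0.0549). Tnfaip3, which encodes the ubiquitin-editing inhibitor A20, measured 226, 237 and 224 CPM in PBS retinas and 121, 111 and 135 CPM in vesicle retinas. In the cultures it measured 24.2, 19.0 and 19.8 CPM with PBS and 159, 167 and 178 CPM with vesicles. The groups lay apart in both settings and in opposite order, with log2 fold changes of -0.90 ± 0.10 (adjusted p 0.00045) and 3.00 ± 0.08 (adjusted p 6.3e-17).

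Of the other inhibitors of sensing, 4 of 10 on the list rose in the cultures with Tnfaip3 counted, and 2 of 10 rose and 1 fell in the retina. Among all tested genes 10.9% rose in the cultures, and 10.7% rose and 5.19% fell in the retina. Usp18, which removes ISG15 and blocks the interferon receptor, went from 9.12 ± 0.425 to 129 ± 10.7 CPM in the cultures (log2 fold change 3.82 ± 0.08, adjusted p 1.6e-18) and from 2.86 ± 0.634 to 11.5 ± 6.75 CPM in the retina (2.00 ± 0.42, adjusted p 0.014). Its retina call was lost without any 1 of the PBS libraries, with adjusted p from 0.0518 to 0.0609, and without the lens-rich pair (adjusted p 0.0965). Rnf125, a ligase that marks RIG-I for degradation, had 1 count over the PBS retinas and 75 over the vesicle retinas. The ratio was 76.1, with a 95% exact interval from 13.2 to 3045 that covers counting error only. In the retina Rnf125 passed the filter on low counts through the vesicle libraries alone, which held 26, 31 and 18 counts. In the cultures it went from 2.52 to 5.47 CPM, and Cyld went from 57.6 to 70.4 CPM.

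**Figure D4:**
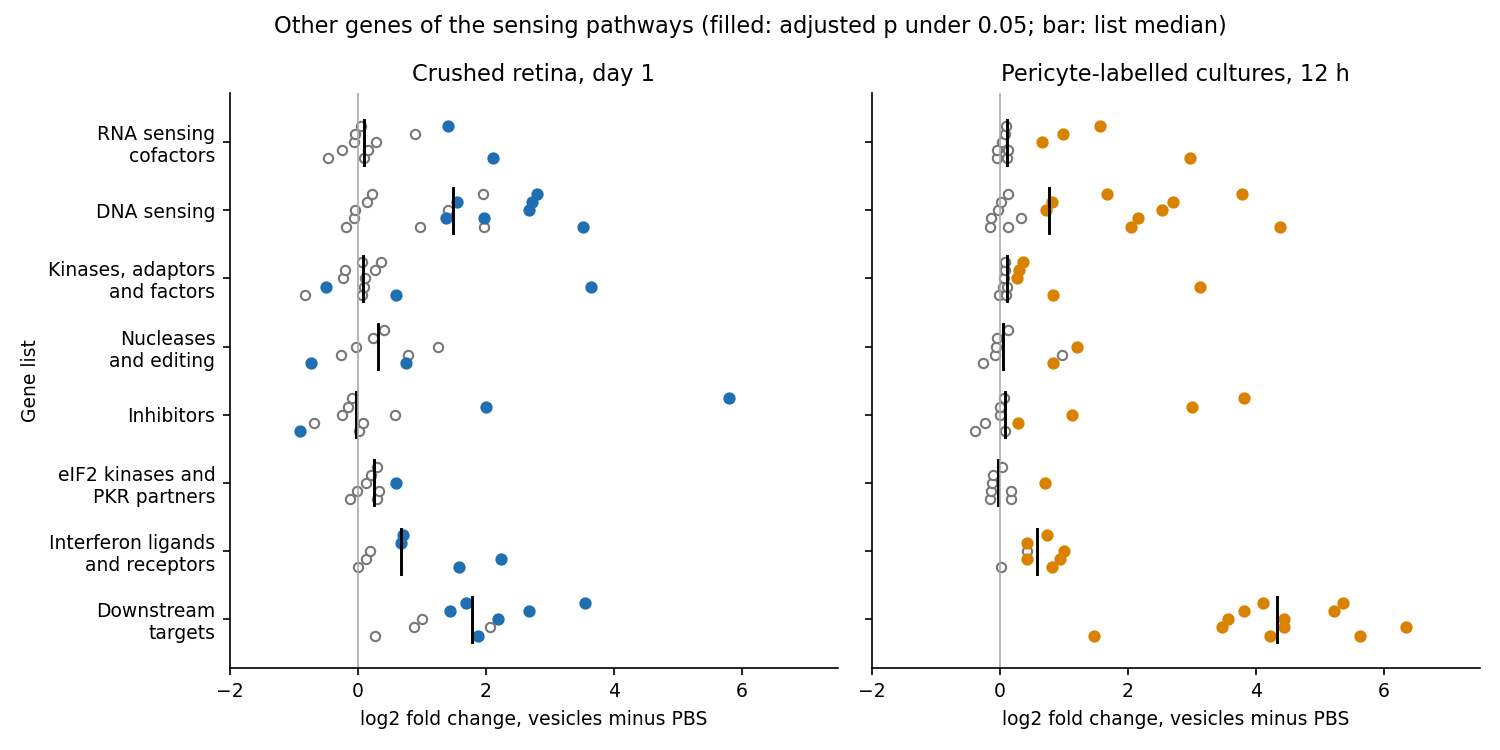
Log2 fold change of each tested gene in the 8 lists of other sensing pathway genes (horizontal axis, vesicles minus PBS), in the crushed retina and in pericyte-labelled cultures; filled points are called at an adjusted p under 0.05 and black bars are list medians. Downstream targets lie furthest right in the cultures, with a median of 4.33, while most eIF2 kinases and cofactors lie near 0 in both.

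Of the genes that clear or edit self nucleic acid, 2 of 8 rose in the cultures, against 10.9% of all tested genes: Adar, which edits double-stranded RNA, from 49.9 ± 1.63 to 116 ± 8.51 CPM (a log2 fold change of 1.21 ± 0.07, adjusted p 8.8e-12), and Samhd1, which hydrolyses nucleotides, from 68.6 to 122 CPM. In the retina 2 of 8 were called, against 15.9% of all tested genes. Samhd1 rose from 20.8 to 35.0 CPM (adjusted p of 0.0083), while Rnaseh2c, a subunit of RNase H2, fell from 59.5 to 35.9 CPM (adjusted p 0.013). Samhd1 lost its call when the lens-rich libraries were left out (log2 fold change 0.71, adjusted p 0.0572), and Rnaseh2c lost it without PBS library 2 (adjusted p 0.0577). Adar in the retina measured 20.6 ± 4.01 and 24.2 ± 5.34 CPM, with an adjusted p of 0.46. Trex1, a DNA exonuclease, was listed at 0 in all 12 libraries. The GENCODE M21 annotation places Atrip over it on the same strand, and Atrip held 1300 and 1090 counts over the PBS and vesicle retinas and 1695 and 2158 over the PBS and vesicle cultures.

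The other eIF2 kinases and the partners of PKR were called in 1 of 8 cases in each setting, near the 15.9% of all tested genes called in the retina and 19.8% in the cultures. Dnajc3, which encodes the PKR inhibitor p58IPK, rose from 73.2 ± 6.34 to 110 ± 16.5 CPM in the retina (log2 fold change 0.59 ± 0.12, adjusted p 0.010). Ppp1r15a, a phosphatase subunit that reverses eIF2 phosphorylation, rose from 32.3 ± 3.70 to 52.8 ± 10.004 CPM in the cultures (0.71 ± 0.12, adjusted p 0.00041), a call lost without vesicle library 1 (adjusted p 0.0922). Medians were 0.26 in the retina and -0.03 in the cultures.

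Interferon genes other than Ifnb1 also had almost no counts: 18 of the 28 ligands and receptors on the list were at 0 in every retina library, and 18 in every culture library. The sources do not say how reads that align to several genes were counted. Reads of interferon genes that resemble each other may therefore be missing, and a count of 0 does not show absence. The ligands that had any read were Ifnz with 2 counts over the vesicle retinas, Ifng with 2 counts over the PBS and 2 over the vesicle retinas, and in the cultures Ifna4 with 2 counts over the vesicle group and Ifng with 1 over the PBS group. Most receptor chains and their kinases passed the filter. In the retina 4 of 7 tested genes rose, against 10.7% of all, and these were receptor chains: Ifnar2 from 8.89 ± 0.899 to 26.4 ± 5.66 CPM (a log2 fold change of of 1.57 ± 0.18, adjusted p 0.00064), Il10rb from 5.54 to 26.1 CPM, Ifngr2 from 19.0 to 31.1 CPM and Ifnar1 from 20.6 to 32.9 CPM. Ifnar1 lost its call without any 1 of 5 retina libraries, all but vesicle library 3 (adjusted p from 0.0546 to 0.143). It also lost it with limma voom (adjusted p 0.0636) and without the lens-rich pair (adjusted p 0.0533). Ifngr2 lost its call without that pair too (adjusted p 0.0512). In the cultures 6 of 8 rose, against 10.9% of all, among them Ifngr1 from 57.6 to 115 CPM and Ifngr2 from 45.3 to 86.5 CPM, with Il10rb, Ifnar2, Ifnar1 and the kinase Tyk2 at log2 fold changes of 0.42 to 0.81.

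Targets downstream of these pathways had the highest list median in both settings. In the cultures 12 of 12 rose (10.9% of all tested genes did), with a median log2 fold change of 4.33. Cxcl10, a chemokine, measured 6.92, 9.12 and 9.99 CPM with PBS and 442, 448 and 392 CPM with vesicles, with a log2 fold change of 5.62 ± 0.10 (adjusted p 3.9e-19). Ifit1, Ifit3 and Isg15, antiviral effectors, went from 32.4 to 602, from 99.6 to 1101 and from 8.05 to 139 CPM. Mx1 and Mx2 were among the 12 but were not listed for the retina, so the medians of the settings cover different genes. In the retina 6 of 10 rose (10.7% of all tested genes did), none fell, and the median was 1.79. There Cxcl10 measured 1.37, 1.46 and 0.601 CPM with PBS and 16.8, 7.97 and 15.6 CPM with vesicles, with no overlap (3.55 ± 0.40, adjusted p 0.00073), and the p-values next in order belonged to Ifi44, Ccl5 and Oasl2, which went from 0.188 to 1.24, from 0.377 to 1.74 and from 11.9 to 32.3 CPM. The retina calls of Ccl5, Oasl2, Isg15 and Ifit1 were each lost on leaving out at least 1 library, PBS library 2 in all of these cases (adjusted p from 0.0520 to 0.151). In the retina Ifi44 and Ccl5 passed the filter on low counts through the vesicle libraries alone.

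Genes that followed Ifih1 most closely over the 6 libraries of a table were found by Pearson's r of log2 CPM, as a description only. In the cultures these were Psmb8, H2-Q4, Rsad2, Dpysl3 and Irf7, each at 0.999. In the retina they were Rrn3 at 0.999, Lgals9 at 0.998, Oasl2 at 0.997, Herc6 at 0.994 and Oas1a at 0.992. The 6 points of each table share 2 treatment groups, and in the retina also the high values of vesicle library 1 and the low ones of library 3.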

How the data were processed

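Bulk RNA libraries of 12 mouse samples were compared within each of 2 count tables. Per the submitters' processing notes, the authors used FastQC 0.11.8, HISAT2 2.0.5, featureCounts 1.5.0-p3 and limma; the genome build and the handling of strand and multiply aligned reads are not given in the sources used here. The deposited values are raw counts per gene. Every column was used.

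Each table was tested alone in R 4.3.3 with edgeR 4.0.16: filterByExpr with a minimum count of 10, TMM scaling, the robust quasi-likelihood F test with 4 residual degrees of freedom, 2-sided, and Benjamini-Hochberg adjustment over all tested genes, with calls at an adjusted p under 0.05. A gene could pass this filter through the libraries of a single group. Among such genes, Rnf125, Ifi44 and Ccl5 in the retina and Ifi203 and Ifi207 in the cultures had every PBS library under 10 counts. They passed through the vesicle group only. Other genes had a PBS library under 10 counts and needed vesicle libraries beside the PBS libraries to pass. Ifi204, Zbp1, Ifi205 and Ifi211 in the retina and Ifi209 in the cultures were among these. CPM use TMM-scaled totals. The difference between settings was tested with limma 3.58.1 on genes tested in both tables. Alternatives were DESeq2 1.42.0, limma voom, other scalings, no filter, and leaving out libraries; for the tests within the retina table also the lens-rich pair. The tests were tried on simulated counts first, with changes planted only in genes of higher counts. Most planted 4-fold changes were recovered, and no rate is given here for smaller changes or for genes near the filter. Libraries of a group never agreed within sampling noise (chi-squared over its degrees of freedom was at least 11.2 in the retina and 6.12 in the cultures). Library numbers of the retina are column numbers.

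The 9 genes and the lists were chosen with earlier results of these data known. The text names all 9, genes of each list mostly from the first 4 in order of p in a table, and the 5 genes most correlated with Ifih1. Genes named beyond these, such as Sting1, Irf3, Adar in the retina and those whose calls were lost, were chosen after their values were seen. A further motif was searched and is not reported here. Promoter windows came from RefSeq (GRCm38.p6), and exon lengths from GENCODE M21. Intervals of count ratios are exact binomial at 95%, and the floor for a count of 0 is 3 counts over the group.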

Additional observations from a re-analysis of the deposited data

Results flagged for a closer look

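The vesicle effect differed between the crushed retina and the pericyte-labelled cultures for 1674 of 13712 genes in a test of the difference itself (limma, adjusted p under 0.05), and 5 of them are given here, retina minus cultures on the log2 scale. Among the sensing genes these were Dhx58 (-1.97), Ifih1 (-1.42) and Tbk1 (-0.40), all with the weaker effect in the retina. The other 2, from the pathway lists, were called in opposite directions in the settings: Tnfaip3, with a difference of -3.91 ± 0.14 (adjusted p 1.3e-10), and Optn, with -0.78 ± 0.12 (adjusted p 0.00061).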

How the results depend on the processing

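Among recomputed values of the sensing genes that pass the filter (none for Ifnb1, nor for Cgas in the retina), 260 kept their direction and side of the threshold, 10 lost and 3 gained a call, and 5 turned sign, none of which was called. Leaving out 1 library at a time moved the log2 fold change of Mavs between -0.19 and 0.076 in the retina (positive without vesicle library 3) and between -0.063 and 0.0075 in the cultures (positive without PBS library 3, at 0.0040, or vesicle library 3). It moved the difference between settings from -0.24 to 0.041 for Mavs (positive without retina vesicle library 3) and from -0.27 to 1.09 for Ifi204 (negative without retina PBS library 2). The retina then had 1328 to 2909 called genes and the cultures 2412 to 3500; of the sensing genes 2 to 4 and 6 were called, 2 to 4 differed between settings, and of the lists 20 to 32 and 42 to 45 genes were called. Retina calls fell to 1328 without PBS library 2, 1401 without vesicle library 1 and 1381 without vesicle library 2. Without the lens-rich libraries 1420 genes were called in the retina and 1 of the 9, Ddx58. The replicate block in the cultures gave 3287 called genes and 6 of the 9. Correlations between libraries of the same number were -0.0238, 0.0183 and 0.0274, and those between unlike numbers ran from -0.0576 to 0.0380. They show no sign of pairing by number, but correlations this small in either case cannot exclude a shared dish or batch. No paired analysis was possible in the retina or between settings because the retina columns carry no replicate number of the labels. Depth limits Cgas in the retina and Ifnb1 in both settings, which had too few counts to be tested.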
